A study of Arabidopsis thaliana with 12 samples.

Results

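The cysteine-rich receptor-like kinases (CRKs) of Arabidopsis thaliana were followed across 4 groups of rosettes that differ in the cell death regulator LSD1. Members were the genes of the family by locus, 41 of the 27416 gene models with a count. Of these, 38 carried a CRK name as their symbol in the annotation and 3 carried it as a synonym (CRK9, listed as EP1; CRK17, listed as EMB1290; and ARCK1). All groups were in the Ws-0 accession, with 3 libraries each, from rosettes of 2-week-old plants grown with 16 h of light per day. They were wild type (WT), the lsd1-1 mutant, 35S:LSD1-GFP, in which LSD1 carries a green fluorescent tag, and 35S:LSD1-GR treated with dexamethasone (LSD1-GR+DEX), in which LSD1 carries a hormone-binding receptor domain. The viral 35S promoter of both transgenes is active in most plant cells, and dexamethasone lets proteins fused to the glucocorticoid receptor domain enter the nucleus. Only the LSD1-GR plants grew on nylon mesh and were moved to 30 µM dexamethasone. No untreated LSD1-GR plants, no wild type moved to dexamethasone and no line with green fluorescent protein alone were analysed here, so transgene, hormone and transfer cannot be told apart in LSD1-GR+DEX. In whole rosettes, fewer cells of a type and less RNA per cell cannot be told apart either.

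CRKs are kinases of the plasma membrane. Their outer part holds DUF26 domains with conserved cysteines, and their inner part is a serine/threonine kinase. Many are known to be transcribed more strongly after salicylic acid, pathogens, ozone or other sources of reactive oxygen. Several act beside pattern recognition receptors: CRK28 associates with the flagellin receptor FLS2 and its partner BAK1, CRK2 phosphorylates the NADPH oxidase RBOHD, and CRK36 binds the kinases ARCK1 and BIK1. Forced expression of CRK4, CRK5, CRK13, CRK19 or CRK20 is known to bring on cell death. LSD1 is a zinc finger protein whose loss lets cell death spread in leaves.

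In the RefSeq annotation of TAIR10.1, 37 members lay on chromosome 4, 2 on chromosome 1 and 1 each on chromosomes 3 and 5. A run from CRK5 to CRK24 held 20 members among 23 annotated genes at chr4:12117491-12191704, a stretch of 74.2 kb. Gene structure was alike, with 7 exons in 30 of 41 members. The coding length was 1983 bp at the median and 1524 to 2493 bp in the 39 members other than CRK9 and ARCK1. CRK9 had a coding length of 798 bp in 1 exon, and ARCK1, a receptor-like kinase of the cytosol, had 1065 bp.

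The 300 bases before the annotated start of 5 members are shown as examples. Each had a call against WT that was kept under every alternative run that tested the gene. CRK13 was too low to be tested under the filter of 5 CPM in 3 libraries. Other members, such as CRK42, also had a call that was kept. CRK36 and CRK13 rose in lsd1-1 and LSD1-GR+DEX, CRK9 rose in lsd1-1, CRK11 rose in LSD1-GR+DEX, and CRK22 fell in all 3 lines. Sequences are from RefSeq, TAIR10.1, Columbia accession, written 5′ to 3′ on the gene's strand. Capitals mark W-boxes (TTGACC or TTGACT), the element bound by WRKY factors, and TGACG, the element bound by TGA factors, on either strand. The first base after TGAC differs between these patterns, so no match of one is a match of the other on the same strand.
CRK36, chr4:2234690-2234989, minus strand: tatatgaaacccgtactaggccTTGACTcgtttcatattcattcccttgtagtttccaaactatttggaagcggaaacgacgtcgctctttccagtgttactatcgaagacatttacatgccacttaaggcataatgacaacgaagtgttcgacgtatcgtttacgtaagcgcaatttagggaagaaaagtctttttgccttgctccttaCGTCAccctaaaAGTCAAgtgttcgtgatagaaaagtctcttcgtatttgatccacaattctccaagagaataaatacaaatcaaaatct
CRK13, chr4:12151639-12151938, minus strand: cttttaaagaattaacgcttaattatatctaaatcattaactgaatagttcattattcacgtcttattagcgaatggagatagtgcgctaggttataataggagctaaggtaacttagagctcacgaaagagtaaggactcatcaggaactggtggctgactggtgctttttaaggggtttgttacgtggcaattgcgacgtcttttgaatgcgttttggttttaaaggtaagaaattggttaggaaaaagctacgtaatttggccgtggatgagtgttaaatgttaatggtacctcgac
CRK9, chr4:12134673-12134972, plus strand: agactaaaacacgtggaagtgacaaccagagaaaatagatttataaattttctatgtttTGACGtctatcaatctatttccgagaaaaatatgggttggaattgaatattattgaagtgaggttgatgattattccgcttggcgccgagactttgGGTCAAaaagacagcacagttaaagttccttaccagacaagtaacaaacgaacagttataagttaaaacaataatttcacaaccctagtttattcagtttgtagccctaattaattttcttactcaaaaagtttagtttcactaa
CRK11, chr4:12143859-12144158, minus strand: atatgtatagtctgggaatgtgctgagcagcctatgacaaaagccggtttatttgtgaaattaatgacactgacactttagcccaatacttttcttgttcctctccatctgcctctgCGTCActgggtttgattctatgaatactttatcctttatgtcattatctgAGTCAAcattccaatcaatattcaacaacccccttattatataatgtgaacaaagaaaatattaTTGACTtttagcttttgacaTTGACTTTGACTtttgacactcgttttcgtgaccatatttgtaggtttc
CRK22, chr4:12181325-12181624, plus strand: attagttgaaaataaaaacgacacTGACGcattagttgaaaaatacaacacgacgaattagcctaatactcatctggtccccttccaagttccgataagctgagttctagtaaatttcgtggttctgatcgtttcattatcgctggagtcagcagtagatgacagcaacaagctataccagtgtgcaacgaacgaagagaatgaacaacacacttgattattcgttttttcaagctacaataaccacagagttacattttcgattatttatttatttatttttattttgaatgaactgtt

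A W-box stood in the 300 bases of 26 of the 41 members (63.4%), against 32.3% of the windows of the same length before 26709 genes. TGACG stood in 15 members (36.6%), against 21.3% of these windows. Among the 15 members that rose in lsd1-1, 9 held a W-box (60.0%), and among the 26 others 17 did (65.4%). For TGACG the counts were 8 of 15 (53.3%) and 7 of 26 (26.9%). CRK11 held 4 W-boxes, whereas CRK13, among the steepest rises, held neither pattern in this window. For some members, CRK14 and CRK15 among them, no untranslated leader is annotated, so the window ends at the coding start and may hold leader. The windows of CRK15, CRK16 and CRK28 reach into a neighbouring member. A match is a description of letters, and binding was not measured.

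Libraries held 9781360 to 11503432 counts. LSD1 itself, as a check of the labels, stood at 22.9, 22.2 and 25.7 CPM (read counts relative to library size, scaled by TMM factors) in WT and at 0.097, 0.186 and 0 CPM in lsd1-1, which is 3 counts in all against 756. It stood at 2190, 2703 and 2159 CPM in LSD1-GFP and at 168.8, 218.4 and 146.6 CPM in LSD1-GR+DEX. Replicate 2 of LSD1-GR+DEX stood apart from its group, with a mean correlation of log2 CPM of 0.977 to the other 2 libraries, where the other 11 libraries had 0.984 to 0.988. It gave the highest value of its group in 23 of 38 members (60.5%), against 39% of all genes. Replicate 1 of WT was also the highest of its group in 23 members (60.5%, against 31.5%), and replicate 1 of lsd1-1 in 22 (57.9%, against 32.9%).

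Of the 41 members, 38 had enough counts to test. CRK32, CRK33 and CRK38 did not, with CRK33 at 1 count over the 3 WT libraries. Per kb of exon, WT levels ran from 0.0165 CPM per kb (CRK33) to 42.7 ± 4.27 CPM per kb (CRK21, SD, n = 3), with a median of 2.16. In WT 18 members were under 1 CPM per kb and 11 were over 10 CPM per kb, the latter including CRK21, CRK29, CRK42, CRK18 and CRK40. Summed over the family, levels were 663, 599 and 584 CPM in WT and 707, 656 and 623 CPM in lsd1-1. The sums were 578, 514 and 483 CPM in LSD1-GFP and 574, 711 and 550 CPM in LSD1-GR+DEX. The ranges of the sums overlapped between WT and both lsd1-1 and LSD1-GR+DEX, although lsd1-1 was above WT in each of the 3 same-numbered pairs, and all 3 LSD1-GFP libraries lay below the lowest WT library. Among the 38 tested members the highest group mean was in lsd1-1 for 18, in LSD1-GR+DEX for 12, in WT for 7 and in LSD1-GFP for 1. The lowest mean was in LSD1-GFP for 21 members and in lsd1-1 for 1. The count filter asks for enough counts in only 3 libraries. CRK6, CRK7 and CRK37, low in the other groups, passed it only through lsd1-1, which set their highest mean there in advance. The same tally was not made over all genes.

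**Figure D1:**
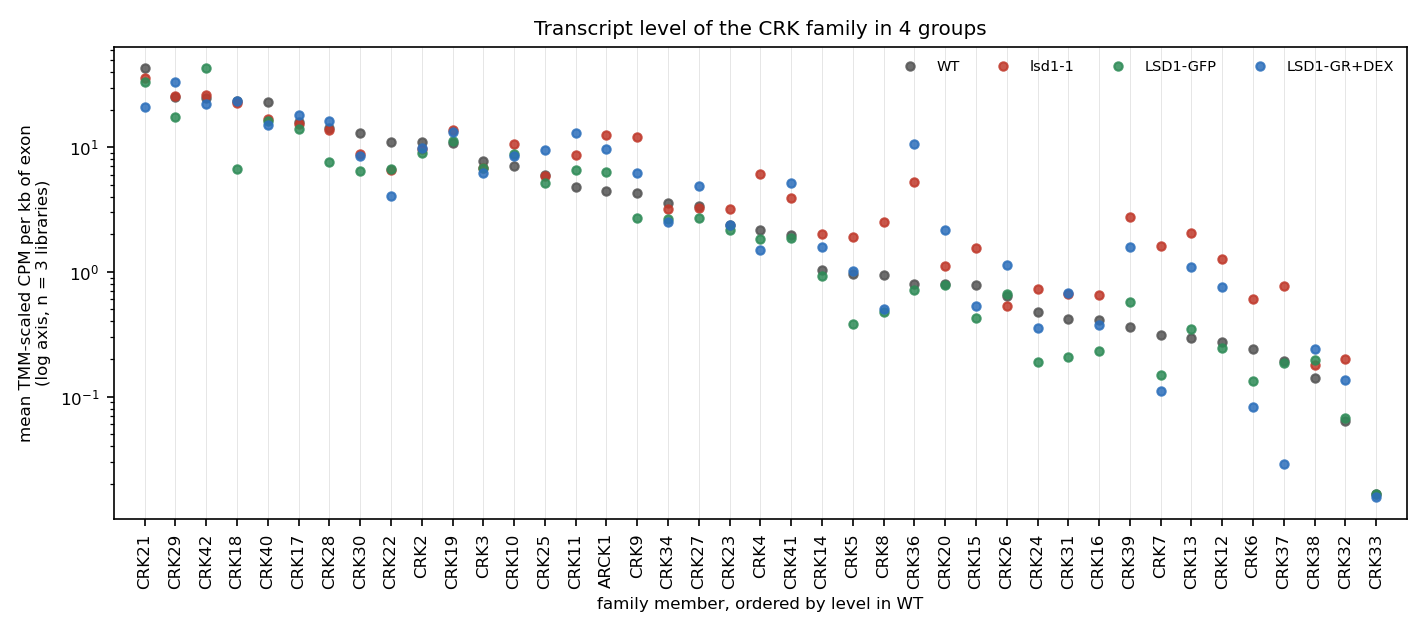
Mean TMM-scaled CPM per kb of exon (log axis, n = 3 libraries) for each of the 41 members, ordered by the WT level, with 1 point per group. Members to the right, at low WT level, spread more between groups than those to the left; a mean of 0 (CRK33 in lsd1-1) has no point on a log axis.

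In lsd1-1 more members were raised than lowered. Of 38 tested members 15 rose (39.5%) and 3 fell (7.89%) against WT, where 5.19% of all 19487 genes tested rose and 3.1% fell, 8.3% in either direction (edgeR's quasi-likelihood test, called at a Benjamini-Hochberg adjusted p under 0.05). The lsd1-1 libraries lay wholly above the WT libraries in 19 members (50%), against 13.8% of all genes. The median log2 difference was 0.60 over the members and -0.01 over all genes. The member median depended on low members. When only genes with at least 5 CPM in 3 libraries were kept, it was 0.00477 and 8 members rose, while 5.82% of all genes rose. Fewer than 38 members passed that filter, so the 8 are not out of 38. With no count filter 14 members rose, while 3.85% of all genes rose. CRK39, CRK13, CRK36, CRK7 and CRK12 rose most, from low WT levels. CRK22, CRK30 and CRK40 fell, from higher ones. The 15 that rose had WT levels of 0.194 to 10.8 CPM per kb, 8 of them under 1 CPM per kb. The count of rises was sensitive to each library: without any single one of the 6 it was 7 to 10, while 2.74% to 4.59% of all genes then rose.

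CRK36 (AT4G04490), which takes part in abscisic acid and immune signalling, stood at 2.51, 1.62 and 1.32 CPM in WT and at 13.7, 11.97 and 9.81 CPM in lsd1-1. The groups lay far apart, and the log2 difference was 2.70 (SE 0.48, adjusted p = 0.0063). CRK39 (AT4G04540, chr4:2259498-2262320) stood at 1.25, 0.628 and 0.567 CPM in WT and at 5.91, 6.22 and 6.33 CPM in lsd1-1, a difference of 2.91 (SE 0.62, adjusted p = 0.0139). Every lsd1-1 library of CRK39 was above every WT library, yet the adjusted p was 0.0518 without WT replicate 2 and 0.0703 without WT replicate 3.

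CRK13 (AT4G23210, chr4:12148673-12151638), whose forced expression raises salicylic acid and resistance to bacteria, stood at 0.771, 0.359 and 1.04 CPM in WT and at 5.81, 3.80 and 5.62 CPM in lsd1-1. It rose by 2.80 (SE 0.34, adjusted p = 0.000207), with no overlap between the groups. Its neighbour CRK12 went from 0.964, 0.359 and 0.661 CPM to 2.91, 4.27 and 2.05 CPM, a rise of 2.21 (SE 0.39, adjusted p = 0.00298). CRK7, whose mutants are known to be sensitive to extracellular reactive oxygen, went from 1.16, 0.269 and 0.661 CPM to 4.26, 2.97 and 3.57 CPM. Its rise was 2.37 (SE 0.47, adjusted p = 0.00671). The WT libraries of these 3 genes held few reads, 3 to 12 counts each, and all lay below every lsd1-1 library.

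CRK9 (AT4G23170) had the smallest adjusted p of the family in lsd1-1. It stood at 9.45, 6.01 and 8.13 CPM in WT and at 25.7, 20.1 and 19.6 CPM in lsd1-1, a log2 difference of 1.47 (SE 0.16, adjusted p = 9.98e-05). CRK4, one of the members whose forced expression brings on cell death, went from 6.56, 4.58 and 5.48 CPM to 20.4, 12.2 and 14.0 CPM (1.49, SE 0.34, adjusted p = 0.0183). CRK5 (AT4G23130, chr4:12117491-12120220), another of these, went from 2.22, 1.97 and 2.36 CPM to 5.23, 3.43 and 4.28 CPM (0.98, SE 0.28, adjusted p = 0.048). Groups did not overlap for any of the 3, but CRK5 missed the threshold in each of the 6 fits that left out 1 library, and CRK4 in 4 of them.

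CRK8, CRK10, CRK11, CRK14, CRK19, CRK37 and ARCK1 made up the other rises, between 0.35 (CRK19) and 1.99 (CRK37) on the log2 scale. ARCK1 (AT4G11890), a partner of CRK36 in abscisic acid signalling, stood at 8.77, 4.04 and 5.48 CPM in WT and at 17.0, 17.6 and 16.7 CPM in lsd1-1 (1.49, SE 0.41, adjusted p = 0.0489). With replicate number as a block its adjusted p was 0.0906, and it missed the threshold without any 1 of the 6 libraries. In that blocked fit CRK41 also rose (0.99, adjusted p = 0.00381) and CRK21, the most abundant member in WT, fell (-0.26, adjusted p = 0.00738). CRK37 rested on 13 counts in WT and missed the threshold without any 1 of the 6 libraries. CRK8 and CRK19 each missed it in 4 of these 6 fits, CRK14 in 5 and CRK11 in 3.

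The 3 falls were smaller than the leading rises. CRK22 (AT4G23300, chr4:12181625-12184774) stood at 31.1, 26.9 and 28.3 CPM in WT and at 20.4, 12.5 and 18.6 CPM in lsd1-1 (-0.75, SE 0.14, adjusted p = 0.00536). CRK30 fell by 0.55 and CRK40 by 0.46 (adjusted p = 0.00912 and 0.00845). In all 3 genes every lsd1-1 library lay below every WT library, and CRK30 missed the threshold without WT replicate 1 (adjusted p = 0.0536). CRK2 and CRK28, the members tied to RBOHD and to FLS2, did not pass the test, with log2 differences of -0.20 (SE 0.16, adjusted p = 0.549) and -0.07 (SE 0.18, adjusted p = 0.89).

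**Figure D2:**
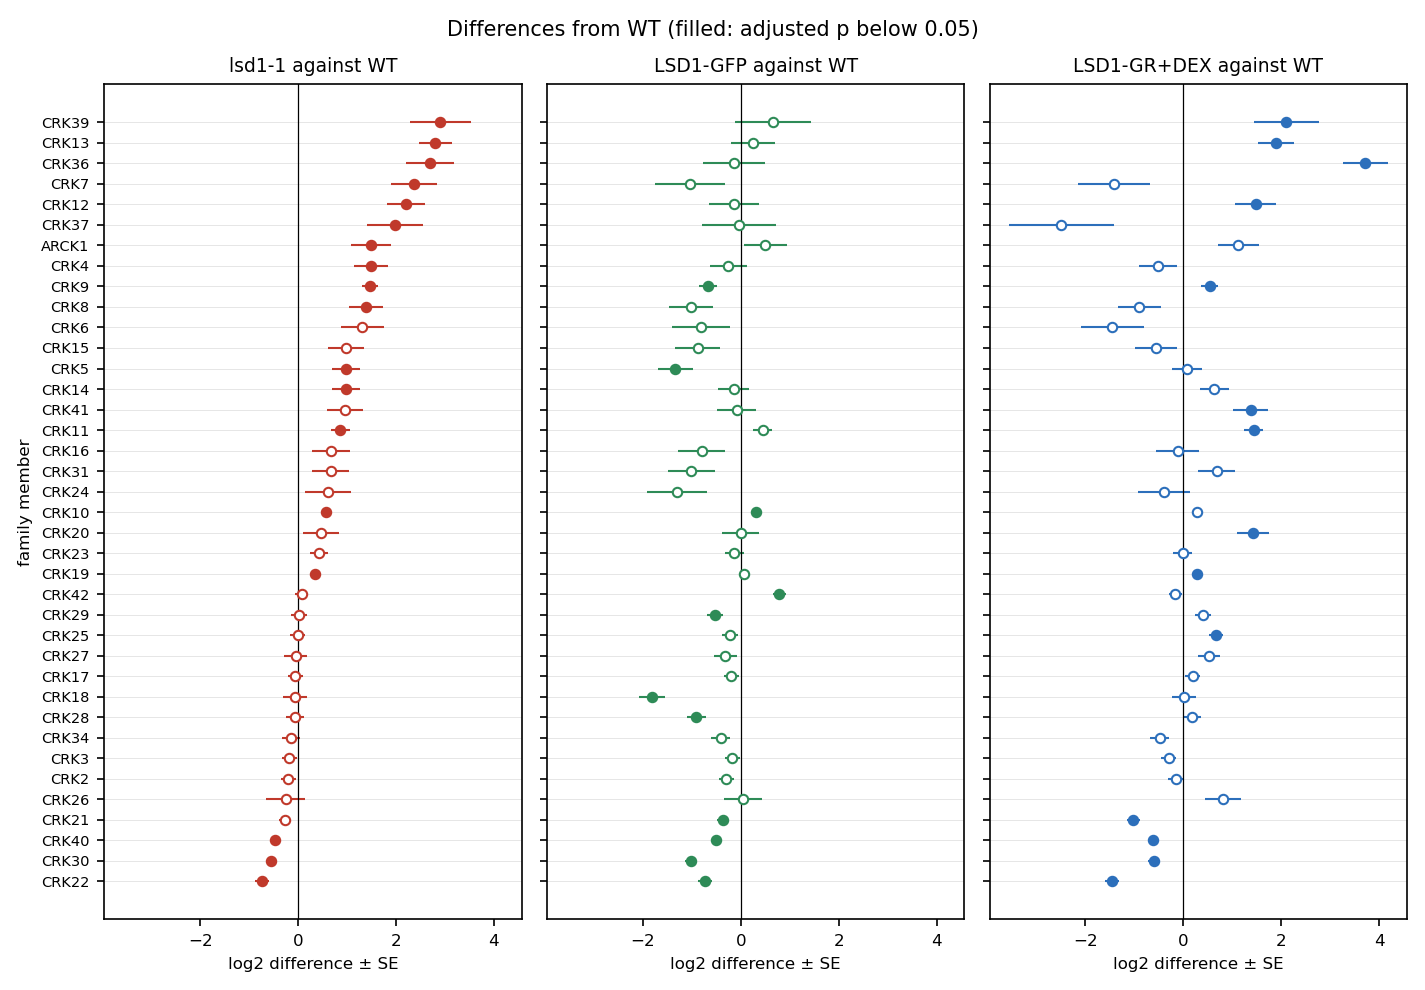
Log2 difference from WT ± SE for the 38 tested members in lsd1-1, LSD1-GFP and LSD1-GR+DEX, ordered by the lsd1-1 value; filled points have an adjusted p below 0.05. The upper rows are filled and to the right in lsd1-1, most points in LSD1-GFP lie left of 0, and CRK22, CRK30 and CRK40 are filled and left of 0 in all 3 panels; the CRK37 point of LSD1-GR+DEX rests on 2 counts.

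In LSD1-GFP more members were lowered than raised. Against WT 9 of 38 members fell (23.7%) and 2 rose (5.26%), where 13.6% of all genes fell and 15.5% rose, 29.1% in either direction. The median was -0.27 over the members (-0.425 to -0.173 with 1 library left out) and 0.00 over all genes. The fallers were CRK18, CRK5, CRK30, CRK28, CRK22, CRK9, CRK29, CRK40 and CRK21. The risers were CRK42 and CRK10. Of the 15 members that rose in lsd1-1, CRK5 and CRK9 fell here. Both comparisons use the same WT libraries. LSD1-GFP lay wholly below WT in 12 members, against 20.3% of all genes.

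CRK18 (AT4G23260) had the steepest fall. It stood at 58.8, 39.7 and 40.7 CPM in WT and at 16.1, 10.03 and 13.6 CPM in LSD1-GFP, a log2 difference of -1.81 (SE 0.27, adjusted p = 0.000591). In lsd1-1 it stood at 49.3, 41.01 and 43.5 CPM, within the WT range. CRK5 fell to 1.11, 0.378 and 1.12 CPM (-1.33, SE 0.36, adjusted p = 0.0131), although without LSD1-GFP replicate 2, its lowest library, the adjusted p was 0.0606.

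CRK28 and CRK29 lie side by side and overlap in the annotation, so their reads may not be fully told apart. CRK28 went from 34.0, 30.3 and 23.7 CPM in WT to 17.0, 16.7 and 13.2 CPM (-0.91, SE 0.19, adjusted p = 0.00329). CRK29 fell by 0.53 (SE 0.16, adjusted p = 0.028), with all LSD1-GFP libraries below all WT libraries for both genes. Their log2 CPM had a Pearson correlation of 0.942 over the 12 libraries. CRK30 went from 29.3, 27.5 and 24.9 CPM to 15.8, 11.4 and 13.2 CPM (-1.02, SE 0.12, adjusted p = 3.42e-05), and CRK9 to 4.23, 5.30 and 5.28 CPM (-0.67, SE 0.19, adjusted p = 0.015).

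CRK42 (AT5G40380), on chromosome 5, was the largest rise. It stood at 64.9, 75.5 and 60.0 CPM in WT, at 126, 120 and 99.4 CPM in LSD1-GFP and at 56.6, 67.6 and 54.2 CPM in LSD1-GR+DEX. The LSD1-GFP libraries stood clear of all 9 others, which ran up to 82.2 CPM, and the difference from WT was 0.78 (SE 0.13, adjusted p = 0.000619). With the replicate block, CRK2 also fell (-0.30, adjusted p = 0.0434) and CRK11 also rose (0.44, adjusted p = 0.0140). Leaving out 1 library ended the call of CRK10, CRK21 and CRK29 in 4 of 6 fits each (without WT replicate 1 for all 3) and that of CRK9 in 2, without WT replicate 1 or LSD1-GFP replicate 1. CRK36 and CRK13 did not pass the test in LSD1-GFP, with differences of -0.14 (SE 0.64) and 0.25 (SE 0.45).

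In LSD1-GR+DEX, which also carried extra LSD1 transcript, single members changed strongly in both directions. Against WT 10 members rose and 4 fell, where 19.3% of all genes rose and 16.7% fell, 36% in either direction. The shares of members, 26.3% and 10.5%, were not far from these, and the median was 0.13, against 0.01 over all genes. LSD1-GR+DEX lay wholly above WT in 14 members, against 24.2% of all genes. CRK36, CRK39, CRK13, CRK12, CRK11, CRK20, CRK41, CRK25, CRK9 and CRK19 rose, and CRK22, CRK21, CRK40 and CRK30 fell. Without replicate 2, the library that stood apart, 6 rose: CRK9, CRK12, CRK19 and CRK39 missed the threshold. CRK9, CRK12 and CRK39 also missed it without WT replicate 2, CRK9 and CRK19 without LSD1-GR+DEX replicate 1, CRK39 and CRK19 without WT replicate 3, and CRK19 without WT replicate 1.

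CRK36 rose more in LSD1-GR+DEX than any other member. It stood at 15.7, 41.3 and 14.8 CPM against the 1.32 to 2.51 CPM of WT, a log2 difference of 3.72 (SE 0.46, adjusted p = 0.000128). Replicate 2 was the highest, and without it the difference was 3.05 (adjusted p = 1.29e-06). CRK39 stood at 1.52, 7.79 and 1.34 CPM, so that its rise of 2.10 (SE 0.66, adjusted p = 0.0268) came to 0.79 (adjusted p = 0.114) without that library.

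CRK13 stood at 3.13, 2.11 and 2.86 CPM and CRK12 at 1.52, 2.50 and 1.53 CPM, both above all WT libraries. For CRK13 they lay below all lsd1-1 libraries, and for CRK12 they overlapped with them. CRK13 rose by 1.90 (SE 0.37, adjusted p = 0.00121) and CRK12 by 1.47 (SE 0.41, adjusted p = 0.0127). CRK11, a gene known to respond to salicylic acid and oxidative stress, went from 11.8, 12.03 and 10.96 CPM in WT to 26.1, 41.3 and 26.7 CPM (1.44, SE 0.19, adjusted p = 8.68e-05). Its lsd1-1 libraries, at 21.5, 23.4 and 18.6 CPM, lay between the WT and the LSD1-GR+DEX libraries.

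CRK20, CRK41 and CRK25 rose here and did not pass the unblocked test in lsd1-1 or LSD1-GFP. CRK20 stood at 1.54, 1.79 and 1.70 CPM in WT and at 3.58, 6.06 and 4.01 CPM in LSD1-GR+DEX (1.43, SE 0.33, adjusted p = 0.00426). CRK41 rose by 1.37 (SE 0.36, adjusted p = 0.0105) and CRK25 by 0.67 (SE 0.15, adjusted p = 0.00356). CRK25 shared 16.2% of its 50-base words with an overlapping gene, which limits how its reads can be assigned.

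Of the called members CRK22 fell furthest, to 9.75, 10.6 and 11.2 CPM (-1.46, SE 0.15, adjusted p = 8.51e-06). All 3 values lay under the lowest library of the other 3 groups, at 12.5 CPM. CRK21 fell from 104.5, 90.01 and 109.5 CPM in WT to 50.5, 45.3 and 53.9 CPM (-1.02, SE 0.13, adjusted p = 4.31e-05). CRK30 fell by 0.60 and CRK40 by 0.62. CRK7, high in lsd1-1, stood at 0.268, 0.481 and 0 CPM in LSD1-GR+DEX and did not pass the test against WT (adjusted p = 0.152). CRK37 had 2 counts in the 3 LSD1-GR+DEX libraries against 13 in WT, a ratio of 0.154 (95% exact interval 0.0169 to 0.680, counting error only). The interval pools the libraries and leaves out variation between them, and CRK37 was not called against WT in the edgeR test.

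**Figure D3:**
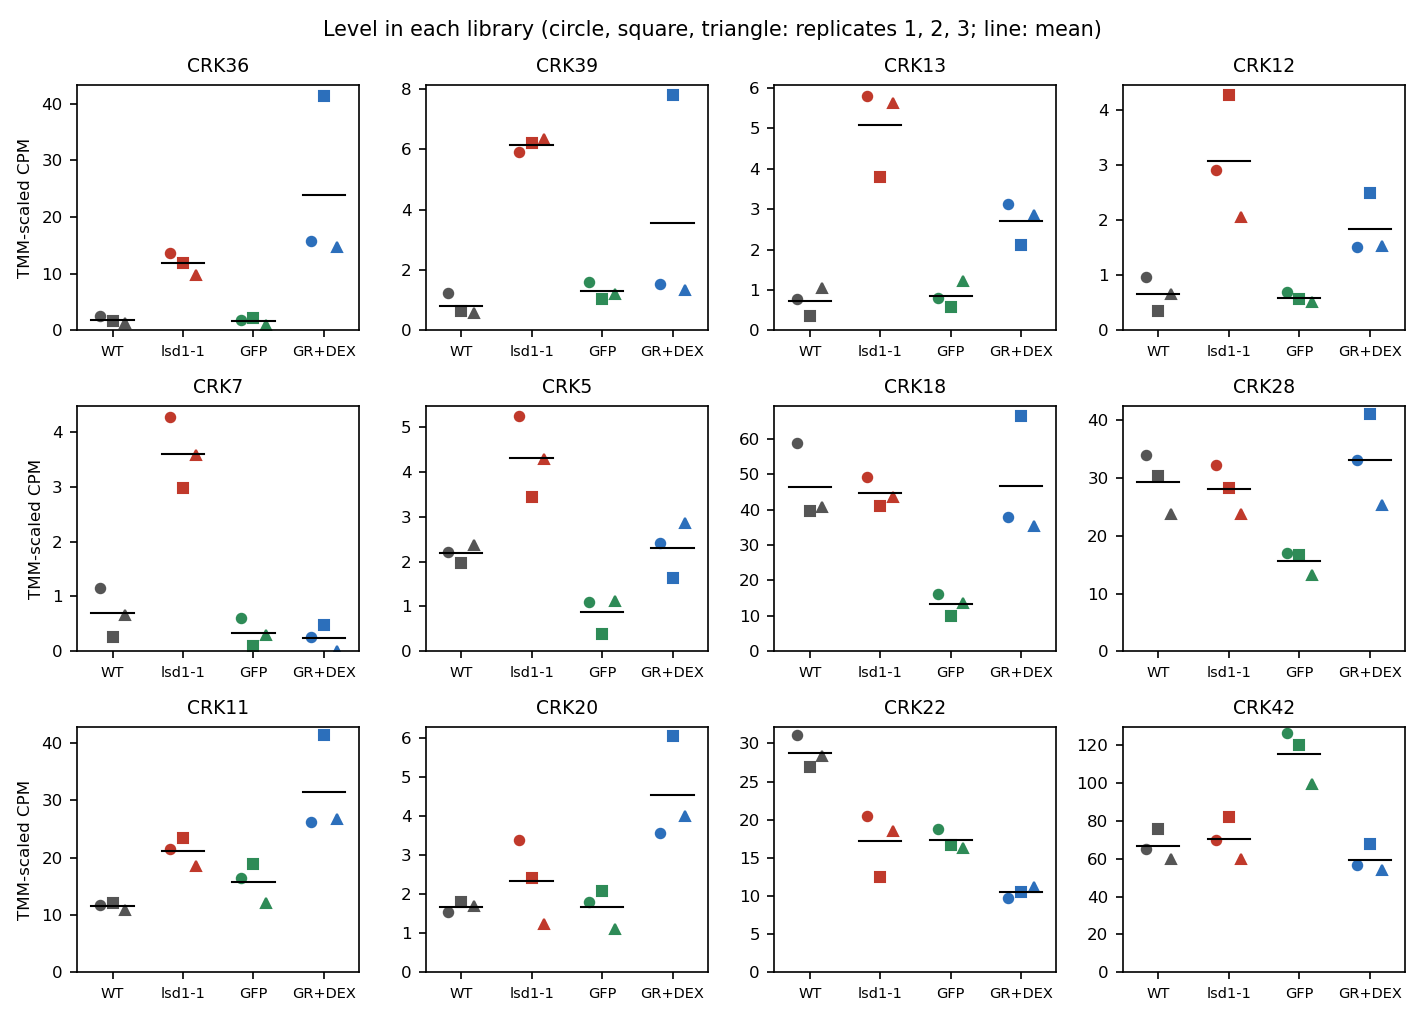
TMM-scaled CPM of 12 members in each library, with circle, square and triangle for replicates 1, 2 and 3 and a line at the group mean. CRK36, CRK39 and CRK11 have 1 high library (replicate 2) in LSD1-GR+DEX, CRK13 is high in all 3 libraries of lsd1-1, and CRK18 and CRK28 are lowest in LSD1-GFP.

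Set side by side, the 3 lines sorted the 38 tested members by their calls against the shared WT libraries. CRK11, CRK12, CRK13, CRK19, CRK36 and CRK39 rose in lsd1-1 and in LSD1-GR+DEX but were not called in LSD1-GFP. CRK9 rose in those groups and fell in LSD1-GFP. CRK4, CRK7, CRK8, CRK14, CRK37 and ARCK1 were called in lsd1-1 alone, and CRK22, CRK30 and CRK40 fell in all 3. CRK5 rose in lsd1-1 and fell in LSD1-GFP, and CRK10 rose in both. CRK21 fell in LSD1-GFP and LSD1-GR+DEX. CRK42 rose and CRK18, CRK28 and CRK29 fell in LSD1-GFP alone. CRK20, CRK25 and CRK41 rose in LSD1-GR+DEX alone. A further 12 members, CRK2 and CRK17 among them, were called in none. Of all genes 8.3%, 29.1% and 36% were called in lsd1-1, LSD1-GFP and LSD1-GR+DEX. Joint patterns were not counted over all genes, so none is read as particular to the family.

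Direct comparisons with LSD1-GFP do not set a group against WT, although the WT libraries enter the shared fit and its estimate of spread. In lsd1-1 against LSD1-GFP 21 members rose and 1 (CRK42) fell, where 12.8% of all genes rose and 13.6% fell, 26.5% in either direction, and the median was 0.91 against 0.00. CRK7 differed most (3.40, SE 0.55, adjusted p = 0.000437), followed by CRK36 (2.83, SE 0.50, adjusted p = 0.00165) and CRK13 (2.55, SE 0.33, adjusted p = 9.42e-05). CRK8, CRK12, CRK5, CRK39 and CRK9 followed, with differences of 2.40 to 2.14. The other 13 rises, of 0.47 (CRK30) to 2.13 (CRK6), were in CRK4, CRK6, CRK14, CRK15, CRK16, CRK18, CRK23, CRK24, CRK28, CRK29, CRK30, CRK31 and CRK37. CRK39 missed the threshold without LSD1-GFP replicate 2 (adjusted p = 0.0579). CRK16, CRK23, CRK24, CRK29, CRK30, CRK31 and CRK37 missed it without that library too. Of these, CRK16, CRK23, CRK24, CRK29 and CRK37 also missed it in other alternative runs. With the replicate block CRK11, CRK19 and CRK41 also rose (adjusted p = 0.0104, 0.00394 and 0.000994).

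In LSD1-GR+DEX against LSD1-GFP 15 members rose and 3 fell, where 16.5% of all genes rose and 16.2% fell, 32.8% in either direction, and the median was 0.65 against 0.02. CRK36 differed by 3.85 (SE 0.48, adjusted p = 0.000117), CRK18 by 1.82 (SE 0.27, adjusted p = 0.00044) and CRK31 by 1.69 (SE 0.44, adjusted p = 0.00904). CRK13, CRK12, CRK41, CRK20 and CRK5 followed, between 1.64 and 1.41. CRK9, CRK28, CRK11, CRK29, CRK25, CRK27 and CRK30 made up the other rises, of 1.20 to 0.42. CRK42, CRK22 and CRK21 fell. CRK27 missed the threshold without LSD1-GFP replicate 3 or LSD1-GR+DEX replicate 1, and CRK30 without LSD1-GFP replicate 2 or LSD1-GR+DEX replicate 3.

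Along the chromosome 4 array, the lsd1-1 differences were uneven. Over all genes 48.7% were higher than in WT, with 5.19% called higher and 3.1% called lower. From CRK5 to CRK16 all 12 members were higher than in WT, 9 of them called, with a median of 1.15 and a range of 0.58 to 2.80. Of these, CRK6 and CRK7 passed the count filter only through their lsd1-1 level, which set their direction in advance. From CRK17 to CRK24, 4 of 8 were higher, with 1 called higher and 1 lower and a median of 0.15. Outside the array 5 of 18 tested members rose and 2 fell, with a median of 0.00. The boundary was placed after the values were seen, so these are descriptions. In LSD1-GFP the same 12 genes had 1 rise and 2 falls, where 15.5% of all genes rose and 13.6% fell. In LSD1-GR+DEX they had 4 rises and no fall, where 19.3% of all genes rose and 16.7% fell.

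**Figure D4:**
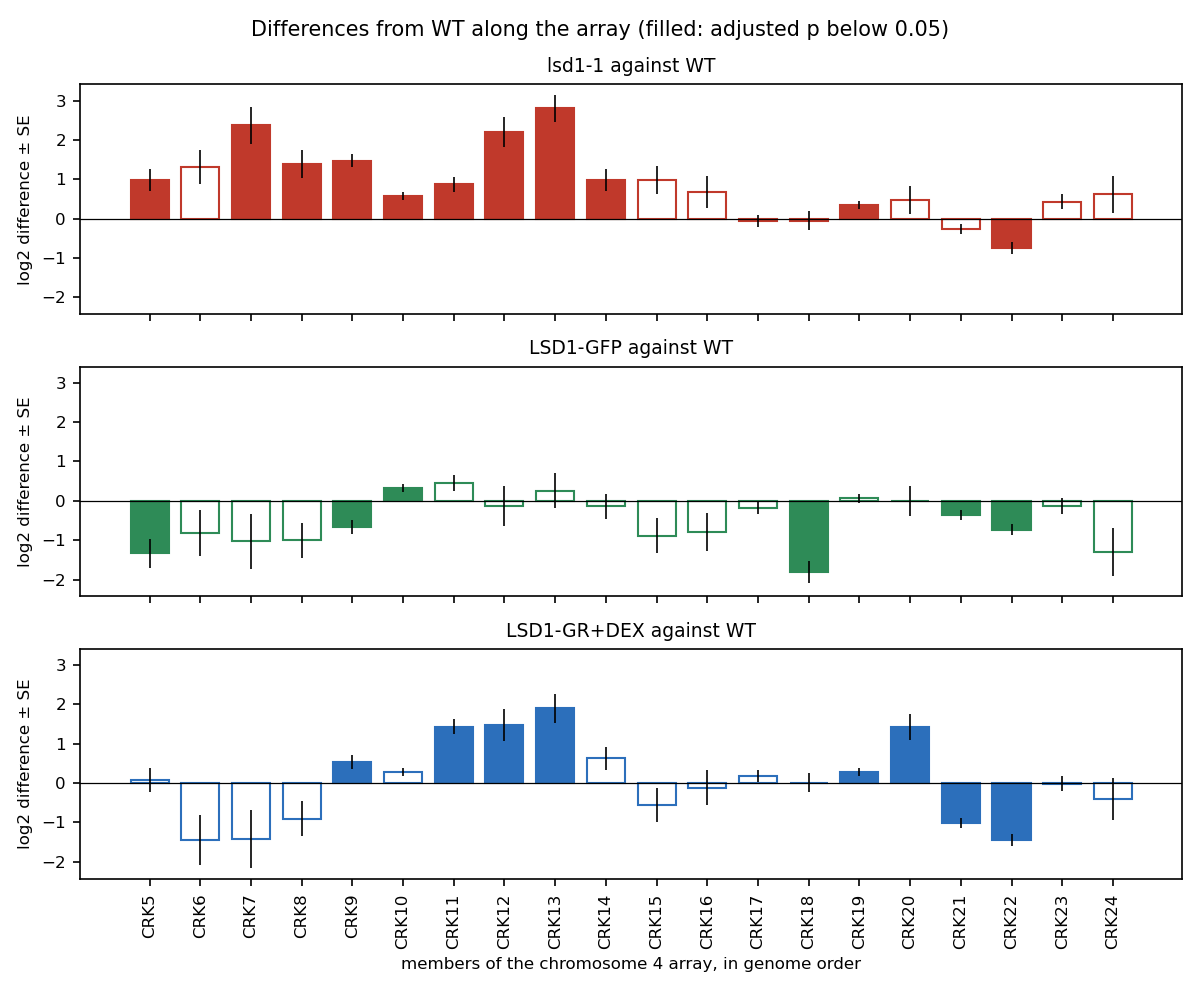
Log2 difference from WT ± SE for the 20 members of the array in genome order, with 1 panel per line; filled bars have an adjusted p below 0.05. In lsd1-1 the 12 bars from CRK5 to CRK16 all point up, whereas the other lines show bars of both directions there.

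Near-identical copies limit some of these values. Of 41 members 13 shared no 50-base word with another locus and 30 shared under 5%. CRK16 (33.5%), CRK8 (28.7%), CRK6 (27.3%), CRK13 (15.1%) and CRK22 (14.3%) shared most beside CRK25. CRK13 shared words mostly with CRK22, and these moved in opposite directions in lsd1-1. How reads matching several genes were counted is not given in the sources. Pairs that overlap in the annotation were CRK10 with CRK11, CRK16 with CRK17 and CRK28 with CRK29, and 4 other members overlap a gene outside the family.

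Across the 12 libraries, the member nearest in pattern to CRK36 was CRK11 (Pearson r of log2 CPM 0.920), to CRK39 it was ARCK1 (0.931), to CRK7 CRK8 (0.967) and to CRK13 CRK9 (0.881). These values share the same group structure and replicate 2 of LSD1-GR+DEX, and are given without a test. CRK7 and CRK8 are neighbours in the array.

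Genes that act with the family were followed from 2 lists written from textbook knowledge with earlier results of these data known. Of 29 receptors and oxidative burst partners, 11 rose and 1 fell in lsd1-1, 3 rose and 3 fell in LSD1-GFP, and 16 rose and 3 fell in LSD1-GR+DEX. As shares these were 37.9% and 3.45% in lsd1-1 (all genes 5.19% and 3.1%), 10.3% each way in LSD1-GFP (15.5% and 13.6%), and 55.2% and 10.3% in LSD1-GR+DEX (19.3% and 16.7%). RBOHD, the oxidase that makes reactive oxygen at the plasma membrane, stood at 55.2, 57.3 and 62.4 CPM in WT, at 82.2, 98.5 and 88.9 CPM in lsd1-1 and at 91.0, 110.0 and 90.4 CPM in LSD1-GR+DEX. It rose by 0.63 in lsd1-1 and by 0.74 in LSD1-GR+DEX on the log2 scale, while in LSD1-GFP it stood at 62.0 to 63.8 CPM. FLS2, the flagellin receptor, stood at 20.2, 19.3 and 24.9 CPM in WT and at 4.74, 8.07 and 4.48 CPM in LSD1-GR+DEX. It fell by 0.81 in lsd1-1 and by 1.90 in LSD1-GR+DEX. XLG2, an extra-large G protein of the immune receptor complex, rose by 1.18 in lsd1-1.

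Of 12 tested genes with DUF26 domains outside the CRK family, mostly plasmodesmal proteins, 3 rose and none fell in lsd1-1, 1 rose and 4 fell in LSD1-GFP, and 4 rose and 1 fell in LSD1-GR+DEX. The shares that rose were 25%, 8.33% and 33.3%, against 5.19%, 15.5% and 19.3% of all genes. The shares that fell in LSD1-GFP and LSD1-GR+DEX were 33.3% and 8.33%, against 13.6% and 16.7% of all genes. AT3G22060 went from 20.8, 18.5 and 20.6 CPM in WT to 38.7, 37.3 and 36.8 CPM in lsd1-1, to 11.6, 10.4 and 15.3 CPM in LSD1-GFP and to 35.4, 45.7 and 37.0 CPM in LSD1-GR+DEX. HWI1, also known as PDLP5, a regulator of plasmodesmata and salicylic acid responses, rose by 0.64 in lsd1-1 and 0.67 in LSD1-GR+DEX and fell by 0.53 in LSD1-GFP.

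Marker sums for leaf, root, flower and senescence differed between some of the groups, whereas guard cell sums overlapped. In lsd1-1 the leaf, root and senescence sums overlapped with WT. The 4 leaf photosynthesis markers summed to 21645 to 27961 CPM in WT, 20958 to 24525 CPM in lsd1-1, 34211 to 40642 CPM in LSD1-GFP and 17627 to 19612 CPM in LSD1-GR+DEX. The 6 root markers summed to 968 to 1256 CPM in WT, 1021 to 1195 CPM in lsd1-1, 1242 to 1891 CPM in LSD1-GFP and 2421 to 2734 CPM in LSD1-GR+DEX, almost all of it PYK10, and 1 of the 6 was at 0 in every group. Guard cell markers summed to 81.4 to 113.9 CPM in all groups. Flower markers summed to 16.3 to 19.0 CPM in WT, 13.8 to 14.9 CPM in lsd1-1, 3.03 to 4.47 CPM in LSD1-GFP and 9.82 to 10.9 CPM in LSD1-GR+DEX, so all 3 lines lay below WT. Senescence markers summed to 167 to 220 CPM in WT, 155 to 219 CPM in lsd1-1, 89.7 to 108 CPM in LSD1-GFP and 95.8 to 144.6 CPM in LSD1-GR+DEX, the last 2 groups below WT. Of these 3 senescence markers SAG12 had no counts in WT, lsd1-1 and LSD1-GR+DEX but was detected in LSD1-GFP, against the direction of the sum. Outside LSD1-GFP the sums rest on the other markers alone. The part of all these marker lists in the differences of the CRK genes was not tested.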

How the data were processed

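Messenger RNA of 12 rosette samples was sequenced from a stranded kit, per the labels. The authors deposited raw counts for 27416 gene models, 1 transcript per gene. Trimmomatic 0.30, GSNAP, HTSeq 0.6.1 and TAIR10 are named, per the submitters' processing notes. The sources used here give no settings and no strand option. Plants were Ws-0 and the reference is Columbia.

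Counts were tested in R 4.3.3 with edgeR 4.0.16 (filterByExpr, TMM factors, robust quasi-likelihood F test, all 12 libraries, a mean per group), two-sided, with Benjamini-Hochberg adjustment over 19487 genes. A gene was called at adjusted p below 0.05. The code was tested on simulated data. CPM values are TMM-scaled, and SE is the log2 difference over the square root of F. Labels call the libraries biological repeats. In 12 within-group pairs, counts differed beyond sampling noise. Alternatives were RLE factors, DESeq2 1.42.0, other count filters, the compared groups alone, a replicate block and each library left out. Same-numbered libraries deviated together (correlations of 0.138 to 0.469) in the 3 comparisons among WT, lsd1-1 and LSD1-GFP, so the numbers were taken to pair them, from the data. The main calls, SE and adjusted p do not use this pairing, which enters only where a replicate block is named. Of the loci, 26719 were found in the RefSeq annotation, TAIR10.1.

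Members and lists were chosen with earlier results of these data known. Full values are given for up to 8 called members per comparison with the largest change and at least 1 CPM, and for CRK2, CRK5, CRK13, CRK28, CRK36 and ARCK1 for their roles. From related lists up to 3 called genes per comparison are eligible. Other members are named beside the counts they belong to.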

Additional observations from a re-analysis of the deposited data

How the results depend on the processing

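Of 83 member and comparison pairs called, 54 were called under every alternative run that tested the gene, and 29 missed the threshold under at least 1. Runs that did not test a gene, such as the stricter count filter for low members, are not counted for it. Of 968 single values, 858 kept their call, 110 missed the threshold and 0 reversed. With at least 5 CPM in 3 libraries, which drops low members, 8 members rose in lsd1-1 (median 0.00477), 12 rose in lsd1-1 against LSD1-GFP (median 0.374), and the median of LSD1-GR+DEX against LSD1-GFP was 0.416. Under that filter 5.82% of all genes rose in lsd1-1 and 15.1% in lsd1-1 against LSD1-GFP. In LSD1-GFP 1 member rose under DESeq2 and 1 in a fit of the compared groups alone, where 14.8% and 14.4% of all genes rose. Leaving out 1 library at a time, rises numbered 7 to 10 in lsd1-1, 1 to 2 in LSD1-GFP, 6 to 13 in LSD1-GR+DEX, 15 to 22 in lsd1-1 against LSD1-GFP and 14 to 16 in LSD1-GR+DEX against LSD1-GFP, whose median was 0.327 to 0.827. The median of LSD1-GR+DEX against WT was -0.0134 to 0.254. With 1 library left out, the share of all genes that rose was 2.74% to 4.59% in lsd1-1, 10.8% to 14.1% in LSD1-GFP and 14.3% to 17.1% in LSD1-GR+DEX. It was 9.42% to 10.7% in lsd1-1 against LSD1-GFP and 12.6% to 15.7% in LSD1-GR+DEX against LSD1-GFP. The cause of the moves of these counts and medians was not tested. With the replicate block, lsd1-1 had 15 rises and 4 falls, LSD1-GFP 3 rises and 10 falls, and lsd1-1 against LSD1-GFP 24 rises and 1 fall. The block also raised the share of all genes called, to 14.8% in lsd1-1, 37.5% in LSD1-GFP and 34.9% in lsd1-1 against LSD1-GFP. For LSD1-GR+DEX the numbers did not pair the libraries in every case (lowest correlation 0.0355 against WT and -0.0340 against LSD1-GFP), and the block gave 13 rises and 6 falls against WT and 18 and 3 against LSD1-GFP (43.8% and 41.2% of all genes). Low counts limit the precision of the differences of the least abundant members.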
